A study of Homo sapiens with 48 samples.

Results

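A pair of derivatives of the castration-resistant prostate cancer line 22Rv1 that differed in the kinase activity of CDK8 were compared by RNA-Seq under vehicle. Both came from 22Rv1 cells in which CDK8 and CDK19 had been knocked out by CRISPR/Cas9 and which carried an insert-free lentiviral vector. They were then transduced with lentivirus for wild-type CDK8 (dKO-8) or for its kinase-inactive D173A mutant (dKO-8M). The comparison asks which transcripts depend on the catalytic activity of CDK8 when the protein itself is present in both lines. The culture medium contained fetal bovine serum (FBS), and exposure to 0.1% DMSO lasted 72 hours. There were 3 libraries of each derivative, 6 of the 48 libraries of the series, and all 20009 expressed genes were followed in them. Libraries of the same 2 derivatives under 500 nM SNX631, an inhibitor of CDK8 and CDK19, and vehicle libraries of the corresponding CDK19 pair, dKO-19 and dKO-19M, served for comparison, with 3 per group. The latter carry wild-type or kinase-inactive CDK19 in the same knockout cells, and medium and duration were the same. The derivatives were made separately, and whether each is 1 clone or a pool is not given in the sources used here. Effects of kinase activity, of the amount of CDK8 and of the derivative as such cannot be told apart in these 6 libraries.

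CDK8 and its paralog CDK19 are alternative catalytic subunits of the Mediator kinase module, which also contains cyclin C, MED12 and MED13 or their paralogs and which binds reversibly to Mediator, the complex that links transcription factors to RNA polymerase II. The module can hold Mediator away from the polymerase, and its kinases phosphorylate transcription factors, so that it acts on transcription both positively and negatively. Among the programs that are quickly induced through Mediator are those of stress-responsive factors such as ATF4, which drives amino acid uptake and synthesis, and in prostate cells the response to androgen.

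The 6 libraries held 19.3 to 31.5 M counts, within the range of the series (13.2 to 31.5 M), and their TMM scaling factors lay between 0.965 and 0.972. All 6 contained counts of the blasticidin resistance gene and none of firefly luciferase. Unscaled, the former were 462, 436 and 646 in dKO-8 (library totals 21.6, 19.7 and 26.3 M). In dKO-8M they were 462, 378 and 329 (totals 31.5, 24.4 and 19.3 M), fewer relative to depth in every library, a difference that was not tested. The 10 prostate epithelial markers were all detected. Fibroblast, endothelial and leukocyte markers summed to at most 7.27, 0.465 and 1.28 CPM (counts scaled per 1e6 of the library), respectively, and COL1A2, KDR, MS4A1, CD3E and CD3D had 0 counts in all 6. The replicates differed by more than counting noise, the ratio of chi-square to its degrees of freedom lying between 1.28 and 2.08, and each was counted as 1 sample. Whether they came from separate cultures is not stated, so p-values measure the spread between these libraries only. Levels are given as CPM after TMM scaling, and differences as fitted log2 values of dKO-8M minus dKO-8. The FDR is that of edgeR's quasi-likelihood test over all genes, and a call required an FDR below 0.01 together with a change of more than 1.5-fold.

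The introduced kinase was examined first. CDK8 transcripts stood at 71.5, 67.4 and 67.1 CPM in the 3 dKO-8 libraries and at 125, 118 and 125 CPM in the dKO-8M libraries. The dKO-8M libraries were thus the high ones (1.79-fold, log2 0.84 ± 0.0449 SE, FDR 5.19e-23). These counts do not separate the introduced transcript from that of the edited gene. In RNA both lines were above the 28.5 ± 1.08 CPM (SD, n = 3) of the luciferase-expressing subline Rv1-Luc, which retains its own CDK8. At the protein level the order was another: by Western blot the paper reported less CDK8 in dKO-8 than in parental cells. The RNA levels therefore do not give the amount of the kinase. CDK19 transcripts, which are still counted in the knockout lines, read 101, 103 and 105 CPM in dKO-8 and 124, 123 and 122 CPM in dKO-8M, a difference of 0.26 ± 0.0441 (FDR 4.45e-06) that lay under the 1.5-fold limit. Of the 7 genes of the kinase module CDK8 alone was called. The differences were -0.10 for CCNC (cyclin C), 0.12 for MED12, 0.38 for MED12L, 0.04 for MED13 and 0.10 for MED13L. In bulk RNA a lower level in every cell and a smaller share of expressing cells cannot be told apart, here and for all genes that follow.

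Across all genes 1406 of 20009 were called, or 7.03%. There were 591 higher in dKO-8M (2.95% of genes) and 815 lower (4.07%), and 7778 genes had an unadjusted p under 0.05. The differences were mostly moderate: 714 calls were under 2-fold, 692 over 2-fold (309 higher, 383 lower) and 179 over 4-fold. The 3 libraries of one derivative lay wholly above or below those of the other for 1399 of the 1406 calls, against 47.0% of all genes tested. Most of the called genes were protein-coding (1139 of 14716 such genes, 7.74%), and the share called was 7.11% among long intergenic RNAs (74 of 1041) and 5.49% among antisense RNAs (75 of 1367). The number depends on the call rule, since 534 genes passed a test against 1.5-fold itself, and 6095 passed when the FDR limit was relaxed to 0.05 and the limit on the fold change was dropped together.

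**Figure D1:**
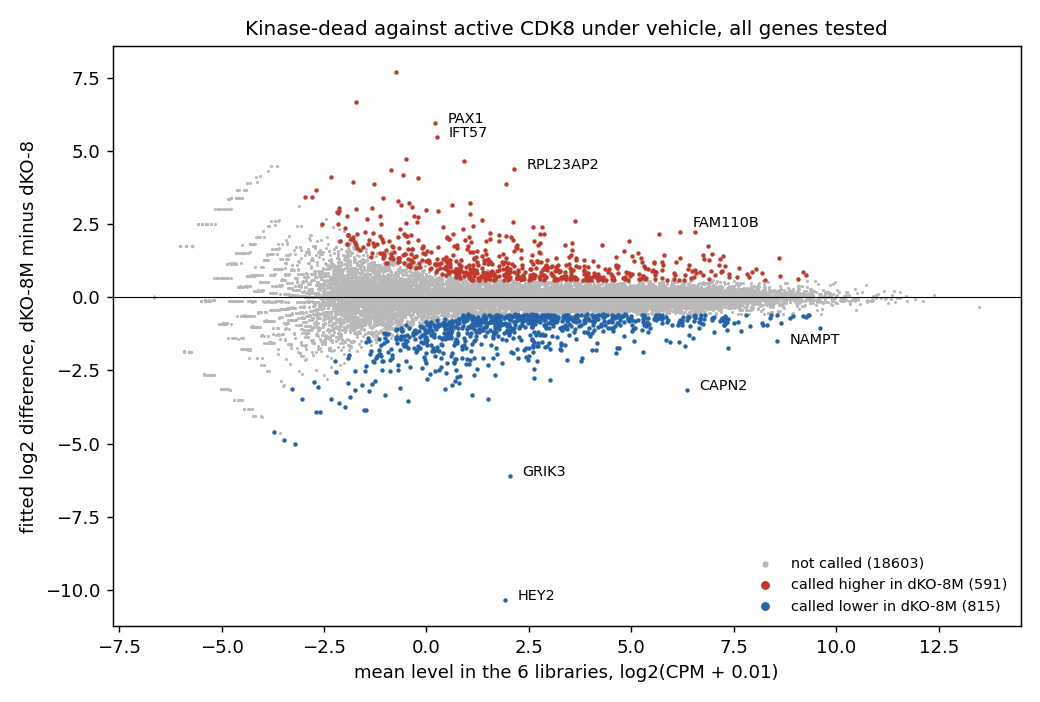
Each point is 1 of the 20009 genes. The horizontal axis gives the mean level in the 6 libraries as log2(CPM + 0.01) and the vertical axis the fitted log2 difference of dKO-8M minus dKO-8 under vehicle. Genes called higher (591, red) and lower (815, blue) occur from low to high levels, with CAPN2 at -3.17 and FAM110B at 2.25 among the abundant ones. The fitted value of HEY2, which had 0 counts in dKO-8M, depends on the prior count of the fit.

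The differences with the lowest p-values were of abundant transcripts and far larger than the spread between libraries. CAPN2, the catalytic subunit of the calcium-dependent protease calpain-2, read 148, 146 and 147 CPM in dKO-8 and 16.2, 16.4 and 16.3 CPM in dKO-8M (log2 -3.17 ± 0.0648 SE, FDR 2.15e-43). NAMPT, the rate-limiting enzyme of NAD salvage from nicotinamide, read 554, 571 and 554 CPM against 203, 192 and 198 CPM (log2 -1.50 ± 0.0359 SE, FDR 6.26e-40). CERK, which phosphorylates ceramide, read 64.3, 61.2 and 58.8 CPM against 17.5, 16.7 and 16.1 CPM (log2 -1.87 ± 0.0634 SE, FDR 2.48e-32). In each of these genes the dKO-8 libraries were the high ones, and the groups did not overlap. In GRCh38 they are protein-coding genes at chr1:223701593-223776018 (CAPN2, plus strand), chr7:106248285-106286326 (NAMPT, minus strand) and chr22:46684411-46738261 (CERK, minus strand). The tight junction protein CLDN7 (log2 -1.52 ± 0.04996 SE, FDR 6.09e-33) and the actin-binding protein TAGLN2 (log2 -1.51 ± 0.0531 SE, FDR 1.22e-31) were lower in dKO-8M as well. CLDN7 had fractional counts in 58.3% of the 48 libraries, as arises when a read is divided between features.

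In the other direction FAM110B read 25.6, 24.3 and 26.5 CPM in dKO-8 and 119.9, 119.5 and 124 CPM in dKO-8M (log2 2.25 ± 0.0568 SE, FDR 8.69e-39). ARSJ, a member of the arylsulfatase family, read 17.998, 18.9 and 19.0 CPM against 83.2, 83.7 and 85.6 CPM (log2 2.17 ± 0.0636 SE, FDR 1.67e-35). CNN3, an actin-binding calponin, read 64.5, 66.2 and 59.4 CPM against 159.6, 159 and 152 CPM (log2 1.31 ± 0.0467 SE, FDR 2.28e-31). The dKO-8M libraries were the high ones for these genes. EPDR1 (1.93 ± 0.0646), ISOC1 (1.32 ± 0.0472) and the semaphorin and VEGF coreceptor NRP1 (1.34 ± 0.0556) were higher in dKO-8M too, with edgeR FDR of 1.59e-32, 2.28e-31 and 3.64e-28.

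The levels of these genes in the other lines fell nearer to one or the other of the 2 derivatives. CAPN2 stood at 9.90 ± 1.60 CPM in Rv1-Luc (SD, n = 3). It read 32.8 ± 1.01 CPM in dKO-19, and dKO-19M had 68.0 ± 2.8001 CPM, so that dKO-8, at 147 ± 1.00, was the highest of these groups. NAMPT, at 559.8 ± 9.84 CPM in dKO-8, was higher there than in Rv1-Luc (154 ± 3.77) and dKO-19 (251 ± 3.01). ISOC1 showed the opposite arrangement, with 206 ± 2.14 CPM in dKO-8M against 82.2 ± 3.44 in dKO-8, 82.4 ± 0.794 in Rv1-Luc and 89.1 ± 2.13 in dKO-19. FAM110B was low in both lines with an active reintroduced kinase (25.5 ± 1.09 CPM in dKO-8 and 35.9 ± 0.699 in dKO-19) and high in both with a dead one (121 ± 2.27 and 156 ± 3.95, in the same order), with 77.3 ± 3.65 in Rv1-Luc.

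The largest fold changes were in genes of low level that were nearly off in one of the derivatives. HEY2, a transcriptional repressor downstream of Notch, had 7.54, 7.16 and 8.003 CPM in the dKO-8 libraries and no read in the 3 dKO-8M libraries, 498 counts against 0. It was at least 185-fold lower in dKO-8M when 3 counts are allowed over the group. Its level was 0.0824 ± 0.0714 CPM in Rv1-Luc and 0.0343 ± 0.0593 CPM in dKO-19, so dKO-8 was the one that expressed it among the lines given here. GRIK3, a kainate receptor subunit, read 7.25, 8.16 and 8.71 CPM in dKO-8 and 0.0654, 0.0846 and 0.214 CPM in dKO-8M (log2 -6.12 ± 0.313 SE, FDR 6.32e-24). MKX (mohawk homeobox, -3.48 ± 0.225) and FOXD2 (a forkhead factor, -3.33 ± 0.303) also fell, and each stood under 1 CPM in all 3 dKO-8M libraries.

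The 12 largest falls further included the adhesion receptor ADGRB1 (-3.00 ± 0.262), the membrane protein XKR7 (-2.86 ± 0.264), the lipid transporter ABCA12 (-2.76 ± 0.150) and the noncoding RNAs LINC00654 (-3.15 ± 0.257) and ALDH1A3-AS1 (-2.92 ± 0.251). The last is antisense to ALDH1A3, which had 6 counts in the 3 dKO-8 libraries together and 1 in the 3 dKO-8M libraries, too few to compare. Whether the counting used the strand is not given in the sources used here, so reads of an antisense pair cannot be told apart with certainty. ASS1, the enzyme that condenses citrulline with aspartate, read 15.1, 14.3 and 13.2 CPM in dKO-8 and 2.06, 2.07 and 1.82 CPM in dKO-8M (log2 -2.82 ± 0.143 SE, FDR 4.18e-24).

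Among the rises, the transcription factor PAX1 had 2 counts in the 3 dKO-8 libraries and 166 in the 3 dKO-8M libraries. Scaled for depth this is a ratio of 74.5, with a 95% interval of 20.3 to 620.1 that covers counting error only. IFT57, a subunit of the ciliary transport complex B, had 3 counts against 169, a ratio of 50.6 (interval 17.0 to 247.6), and read 2.32, 2.41 and 2.19 CPM in the dKO-8M libraries. Its level in Rv1-Luc was 26.02 ± 0.00736 CPM and in dKO-19 0.670 ± 0.111 CPM, so that both derivatives were far under Rv1-Luc, whose kinases are unedited. RFX6, a transcription factor of the islet lineage (4.66 ± 0.315), DOC2B, a calcium sensor of exocytosis (3.87 ± 0.242), the fibrillin FBN2 (3.24 ± 0.298) and the teneurin TENM4 (3.15 ± 0.349) rose from under 1 CPM in dKO-8. RPL23AP2, a processed pseudogene of a ribosomal protein, read 0.384, 0.366 and 0.432 CPM against 8.14, 9.22 and 7.91 CPM, and its reads cannot be told with certainty from those of close copies. The other 5 of the 12 largest rises were SLC27A6 (2.94), FAM95A (2.85, fractional in 68.8% of libraries), AMIGO2 (2.63), CBLN2 (2.60) and ST8SIA1, the GD3 ganglioside synthase (2.59).

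The list of genes driven by ATF4, the transcription factor of the integrated stress response, was the one with the largest share of members called. Of 29 members tested, 16 were lower in dKO-8M and none higher, or 55.2% of the list against 4.07% lower over all genes. A total of 26 members were under 0, and the median difference was -0.61 against 0 over all genes. The summed level of the list ran from 8089 to 8203 CPM in the dKO-8 libraries and from 5031 to 5099 CPM in the dKO-8M libraries, without overlap.

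Short sequence elements that ATF4 binds with C/EBP factors have the form TGATGNAA. RefSeq promoter windows (GRCh38.p14, 250 bases before to 50 after a gene's start) were given for 22 of the 29 members. The element occurred on either strand in 6 of the 22, or 27.3%, in 4 of 13 called members and 2 of 9 others, where a gene with several annotated starts counts if any window holds it. The share was 4.46% of all 27305 genes with a window, 2.83% of the 12633 of them that were tested here and 6.50% of the 554 called lower, and 3.62% of all 35116 windows. The list was made of genes taken to be driven by ATF4, and the 554 include its called members. These shares are therefore no test of ATF4 in these libraries. The 2 printed here are called members with the element before the start. They are shown because their transcripts are described next, and the capitals mark the element (TGATGNAA, or its reverse complement TTNCATCA). The element is a match of letters only, and binding was not measured here. They read 5′ to 3′ along the gene's strand, over chr7:97872409-97872658 for ASNS (minus strand) and chr15:40953221-40953470 for CHAC1 (plus strand), both in GRCh38.p14.
ASNS: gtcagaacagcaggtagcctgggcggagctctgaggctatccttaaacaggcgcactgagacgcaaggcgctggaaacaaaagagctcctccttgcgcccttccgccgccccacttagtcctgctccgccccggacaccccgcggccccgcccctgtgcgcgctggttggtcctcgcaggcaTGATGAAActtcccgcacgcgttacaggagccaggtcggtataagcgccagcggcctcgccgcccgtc
CHAC1: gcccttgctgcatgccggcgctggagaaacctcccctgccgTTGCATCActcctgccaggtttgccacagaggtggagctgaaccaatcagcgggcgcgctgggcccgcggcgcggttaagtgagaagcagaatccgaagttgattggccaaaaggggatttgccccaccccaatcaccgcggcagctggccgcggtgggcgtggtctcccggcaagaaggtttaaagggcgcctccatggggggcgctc
The element began 68 bases before the RefSeq start in ASNS and 209 bases before it in CHAC1, where it lay on the other strand.

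CHAC1, which degrades glutathione and is a standard ATF4 target, read 39.3, 40.4 and 40.0 CPM in dKO-8 and 13.1, 10.9 and 11.5 CPM in dKO-8M (log2 -1.74 ± 0.154 SE, FDR 2.54e-11). ASNS, asparagine synthetase, read 203, 206 and 198 CPM against 107, 103 and 105 CPM (log2 -0.95 ± 0.0922 SE, FDR 2.76e-10). The glutamine transporter SLC1A5 read 424, 431 and 414 CPM against 214, 219 and 219 CPM (log2 -0.96 ± 0.0740 SE, FDR 3.16e-13). All 3 genes, which include both whose promoters are printed above, were lower in every dKO-8M library.

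The amino acid transporters moved with them. SLC7A5, the light chain of the large neutral amino acid transporter, read 1051, 1043 and 1046 CPM in dKO-8 and 492, 508 and 500.1 CPM in dKO-8M (log2 -1.06 ± 0.0528 SE, FDR 6.16e-23). Its heavy chain SLC3A2 fell by 0.89 and the cystine transporter SLC7A11 by 0.78 on the log2 scale, while SLC7A1, for arginine and lysine, was at -0.36 and short of 1.5-fold. Enzymes of serine, one-carbon and proline metabolism were called in part: PHGDH (-0.65), SHMT2 (-0.61) and ALDH1L2 (-0.87) passed, and PSAT1 (-0.58), PSPH (-0.47), MTHFD2 (-0.58) and PYCR1 (-0.41) lay between 0 and the 1.5-fold limit. The mitochondrial enzyme PCK2 fell by 1.17.

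Regulators of the response were lower as well. DDIT3 (CHOP), a proapoptotic factor induced by ATF4, read 57.0, 60.1 and 58.1 CPM in dKO-8 and 25.3, 25.04 and 26.8 CPM in dKO-8M (log2 -1.19 ± 0.0570 SE, FDR 3.26e-25), and had fractional counts in 58.3% of libraries. The mTORC1 inhibitors DDIT4 (-1.67 ± 0.102) and SESN2 (-0.76 ± 0.0921), the pseudokinase TRIB3 (-0.59 ± 0.0714) and CEBPB (-0.89 ± 0.0863) fell. ATF4 itself read 869, 841 and 817 CPM against 627, 613 and 636 CPM, a difference of -0.43 ± 0.0520 that did not reach 1.5-fold. ATF5 (0.44) and STC2 (0.07) were above 0 and not called, and INHBE had 2 counts in the 6 libraries. Of the 18 cytosolic aminoacyl-tRNA synthetases, which include ATF4 targets, 15 were under 0 (median -0.27). SARS1 (-0.61) was called lower (5.56%, against 4.07% of all genes). The 20 endoplasmic reticulum chaperones and regulators had a median of 0.07, and XBP1 (-0.72) was the 1 member called (5%, lower). Both shares are near the 4.07% of all genes, so these counts of calls are no result about the members.

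Under SNX631, in libraries that share none with the comparison above, the same list had a median of -0.01, with 1 member called, lower. That member was DDIT4 (-0.83 ± 0.110). The difference between the vehicle and SNX631 contrasts was itself called for 10 of the 29, all more negative under vehicle, against 0.555% of all genes, and had an FDR under 0.05 for 25. CHAC1 gave the most negative such difference (-1.44 ± 0.242, FDR 1.09e-04), with 11.6, 12.4 and 12.4 CPM in dKO-8 under SNX631 and 10.6, 10.1 and 8.75 CPM in dKO-8M. For DDIT3 it was -1.25 ± 0.0864 (FDR 7.86e-17), for PCK2 -1.09 ± 0.166 and for ASNS -1.01 ± 0.133. The levels in dKO-8 under the inhibitor were near those of dKO-8M in both treatments, as the plot of levels by library shows for DDIT3, CHAC1 and ASNS. SLC7A5 (-0.53) and SLC1A5 (-0.54) still differed under SNX631 at an FDR of 9.53e-12 and 4.51e-07, under 1.5-fold. The tRNA synthetases had a median of 0.01 under SNX631.

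**Figure D2:**
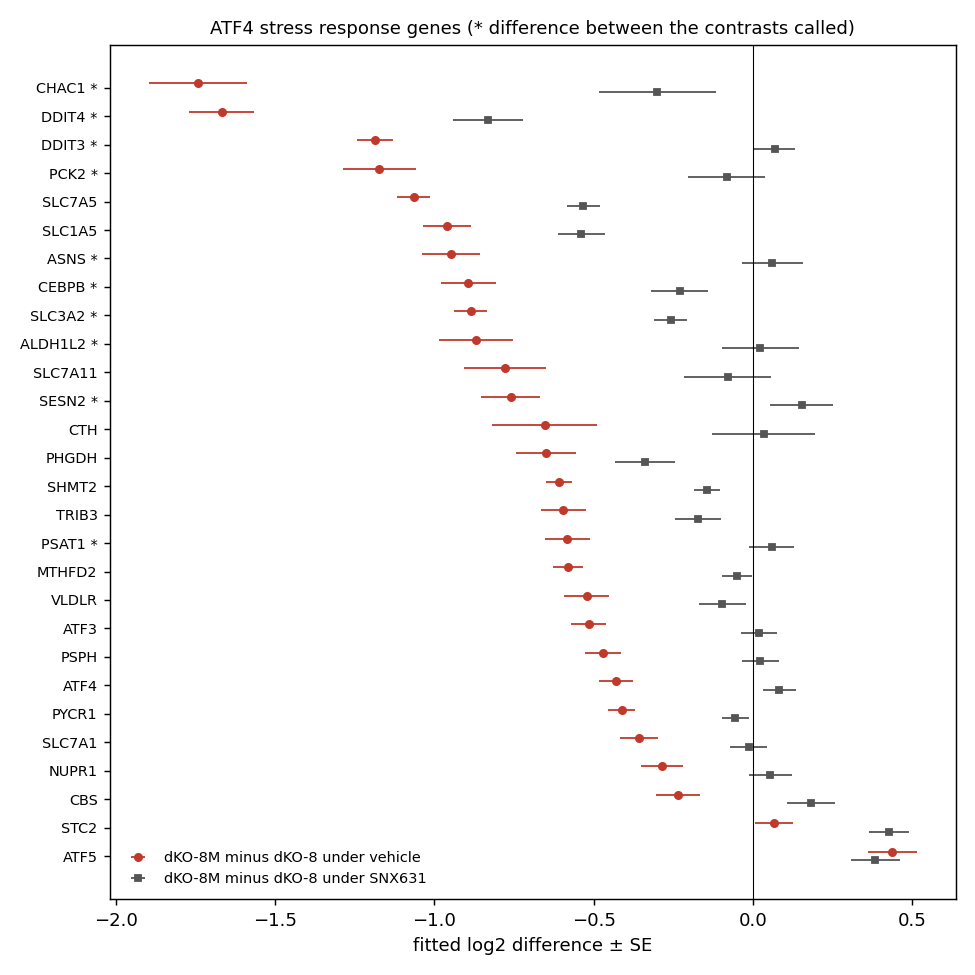
Fitted log2 difference of dKO-8M minus dKO-8 (horizontal axis, bars are the SE of the fit) for 28 of the 29 ATF4 stress response genes, without INHBE, under vehicle (circles) and under SNX631 (squares). Asterisks mark the 10 genes whose 2 differences differ from each other at FDR under 0.01 and over 1.5-fold, such as CHAC1 (-1.74 against -0.30). The squares lie nearer to 0 than the circles for all of these 10.

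Immediate-early genes, which respond to growth factor and stress signals within minutes, were lower in part. Of 24 tested, 6 were lower in dKO-8M and none higher (25% of the list, against 4.07% of all genes lower), and the median was -0.38. EGR1 read 6.05, 7.27 and 7.18 CPM in dKO-8 and 1.96, 1.56 and 1.98 CPM in dKO-8M (log2 -1.89 ± 0.153 SE, FDR 1.05e-15). Its relative EGR3 read 2.50, 2.93 and 3.33 CPM against 0.458, 0.465 and 0.374 CPM (log2 -2.73 ± 0.296 SE, FDR 3.43e-11). JUN, a subunit of AP-1, read 56.8, 49.1 and 55.8 CPM against 26.1, 26.5 and 29.7 CPM (log2 -0.98 ± 0.0731 SE, FDR 1.42e-16). KLF4 (-0.71), the phosphatase DUSP1 (-0.59) and IER3 (-0.93, at about 1 CPM) were called lower as well. DUSP1 was under 1.5-fold without dKO-8 replicate 1 (-0.55), dKO-8M replicate 1 (-0.56) or dKO-8M replicate 3 (-0.55) and with DESeq2 (-0.58) or other scalings. IER3 had an FDR between 0.0237 and 0.0752 without dKO-8 replicates 1 or 2 or dKO-8M replicates 1 or 2. FOS was at 0.02 ± 0.264, with 1.54, 1.52 and 1.02 CPM in dKO-8. Under SNX631 JUN was at -0.01 ± 0.0771 and EGR1 at -0.66 ± 0.199, and the difference between the contrasts was called for both (-0.98 and -1.23, FDR 2.31e-09 and 9.54e-04).

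Androgen response genes, which androgens induce in prostate epithelium, divided in both directions. Of 23 tested, 4 were higher and 4 lower (34.8% called in all, against 7.03% of all genes), with a median of -0.01. The serine protease TMPRSS2 read 8.06, 8.94 and 7.37 CPM in dKO-8 and 15.9, 17.3 and 17.2 CPM in dKO-8M (log2 1.05 ± 0.0829 SE, FDR 3.91e-16). KLK4 (1.54 ± 0.131) and the metalloreductase STEAP2 (0.95 ± 0.0583) rose as well.

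KLK3, which encodes prostate-specific antigen, went the other way, at 2.06, 3.14 and 2.71 CPM in dKO-8 and 0.556, 0.634 and 0.428 CPM in dKO-8M (log2 -2.25 ± 0.259 SE, FDR 1.90e-10). Its neighbour KLK2 (log2 -1.54 ± 0.356 SE, FDR 7.27e-04), the HSP90 cochaperone FKBP5 (log2 -0.68 ± 0.0431 SE, FDR 4.69e-20) and NDRG1 (log2 -0.75 ± 0.148 SE, FDR 1.21e-04) were also lower. FKBP5, at 758 ± 19.3 and 472 ± 8.04 CPM (SD, n = 3), was far more deeply counted than the kallikreins KLK2 and KLK3, which stood under 4 CPM. FKBP5 lies in the first 40 Mb of chromosome 6, where genes in general were lower in dKO-8M, as given at the end.

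The 10 prostate epithelial markers share members, such as TMPRSS2, with that list. In them 4 were higher (40%, against 2.95% of all genes) and none lower (against 4.07% of all genes). The higher ones included FOLH1, prostate-specific membrane antigen (1.61 ± 0.0973), and HOXB13 (0.68 ± 0.0391). FOLH1 stood at 5.81 ± 0.671 CPM in dKO-8 and 17.4 ± 1.44 CPM in dKO-8M, against 400.0 ± 30.5 CPM in Rv1-Luc and 28.9 ± 1.04 in dKO-19, so it was low in these knockout derivatives. FOXA1 (-0.09), EPCAM (0.05), KRT8 (0.22) and KRT18 (-0.21) were not called. For TMPRSS2 the difference was -0.04 ± 0.0709 under SNX631, where dKO-8 read 21.3, 19.7 and 18.7 CPM and dKO-8M 19.3, 19.3 and 19.5 CPM, and the difference between the contrasts was 1.09 ± 0.109 (FDR 1.13e-10).

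Interferon response genes had 2 members higher and 5 lower of 24 tested (29.2% called, against 7.03% of all genes), with a median of 0.03. The lower ones were the exonuclease ISG20 (-1.66 ± 0.125), IFI35 (-2.11 ± 0.246), the guanylate-binding proteins GBP1 (-1.42 ± 0.241) and GBP2 (-1.23 ± 0.268) and IRF7 (-0.91 ± 0.179), and the higher ones IRF9 (0.67 ± 0.161) and IFI44L (1.61 ± 0.491). ISG20 read 10.3, 9.20 and 10.4 CPM in dKO-8 and 2.75, 3.81 and 2.99 CPM in dKO-8M, and the others stood under 4 CPM. IRF9 had fractional counts in 54.2% of libraries. IFI44L, under 1 CPM, was not called without any 1 of the 6 libraries (FDR 0.0122 to 0.0539) nor with DESeq2 (FDR 0.01395). Of 14 genes of antigen presentation by MHC class I tested, 1 was called lower (7.14%, against 4.07% of all genes), the immunoproteasome subunit PSMB8 (-1.34 ± 0.226). The median was -0.41, with 12 members under 0. HLA-B (-0.57), HLA-C (-0.38) and HLA-E (-0.44) were under 1.5-fold, and B2M, which lies on another chromosome, was at 0.32. HLA-B, HLA-C, HLA-E, TAP1, TAP2, PSMB8 and PSMB9 lie in the first 40 Mb of chromosome 6, where genes in general were lower in dKO-8M, as given at the end. B2M is not the only such gene elsewhere. ERAP1 and ERAP2 lie on chromosome 5 and NLRC5 and PSMB10 on chromosome 16, and their values are not given here. The part of the chromosome 6 shift in this list was not tested.

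The counts of other lists can be read against the 2.95% of all genes called higher and the 4.07% called lower. Of 16 Wnt targets 3 were higher and 2 lower. The Wnt antagonists APCDD1 (1.33 ± 0.0884) and DKK1 (1.91 ± 0.169) and the ubiquitin ligase RNF43 (0.84 ± 0.0829), which removes Wnt receptors, rose, and ASCL2 (-0.80 ± 0.180) and DKK3 (-2.02 ± 0.523, under 1 CPM) fell. DKK1 read 2.78, 2.67 and 2.31 CPM in dKO-8 and 8.53, 9.94 and 10.9 CPM in dKO-8M. Of 15 NF-kappaB targets 2 were higher, LIF (0.85) and NFKBIZ (0.61), and 3 lower, the inhibitor NFKBIE (-0.66), the ubiquitin ligase BIRC3 (-0.87) and the noncoding RNA NKILA (-0.81).

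Of 14 neuroendocrine genes 4 were lower, the synaptic and secretory proteins SYT4 (-0.68), SCG3 (-0.61), SNAP25 (-0.83) and SCGN (-0.90, under 2 CPM). Of 19 hypoxia and glycolysis genes 2 were higher, ADM (0.61) and EGLN3 (0.59), and 3 lower, VEGFA (-0.72), NDRG1 (-0.75) and ALDOC (-0.65). Of 19 epithelial adhesion genes the desmosomal cadherin DSC2 (1.14) and CLDN4 (0.75) rose and CLDN7 fell, with E-cadherin (CDH1) at 0.14. Of 12 mesenchymal genes VIM fell (-1.06) and CDH2 rose (0.73). Of 13 genes of steroid metabolism and glucuronidation 2 were lower, UGT2B11 (-2.52) and UGT2B28 (24 counts against 2), close paralogs whose reads may be shared and which stood under 1 CPM.

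Of the 109 called genes among the lists and the named genes, 16 lost their call when 1 library was left out. Without dKO-8 replicate 1 TRIB3 was at -0.57, NFKBIZ at 0.50 and IRF9 at 0.56. Without dKO-8 replicate 3 CDK1 was at 0.58, SCG3 at -0.57 and EGLN3 at 0.54, and EGLN3 was at 0.56 without dKO-8M replicate 2. ADM was at 0.53 without dKO-8 replicate 2 and at 0.58 without dKO-8M replicate 1. CTH, of the ATF4 list, was at -0.58 without dKO-8 replicate 3 and at -0.53 without dKO-8M replicate 2, and DKK3 had an FDR of 0.0178 and 0.0202 without the same libraries. CDH2 was not called without any 1 of the dKO-8 replicates or without dKO-8M replicate 2 (0.66 to 0.75), SCGN without dKO-8 replicate 2 or dKO-8M replicates 1 or 2 (-0.83 to -0.70), and UGT2B28 without dKO-8 replicate 3 (FDR 0.0228) or dKO-8M replicate 1 (FDR 0.0181). PLCD4, described further on, was lost without dKO-8 replicates 2 or 3 (0.61 and 0.62) or dKO-8M replicate 2 (0.55). The remaining members were DUSP1, IER3 and IFI44L, given above.

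Lists for cell growth, SMAD targets and keratins held few calls. With 7.03% of all genes called, lists this short would hold few calls in any case, so the counts are no result about their members. No member was called among 24 genes of sterol synthesis, 24 MYC targets and ribosome biogenesis genes, 24 DNA replication genes, 15 SMAD targets and 6 keratins. Of 24 mitosis genes 22 were above 0, with a median of 0.17. At an FDR under 0.05 with no fold limit 14 of them were higher and 0 lower. Over all 20009 genes 2826 were higher and 3269 lower at that limit. CDK1 was the 1 called (log2 0.61 ± 0.0404 SE, FDR 5.06e-19). It read 249, 243 and 235 CPM in dKO-8 and 375, 370.3 and 360.1 CPM in dKO-8M.

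**Figure D3:**
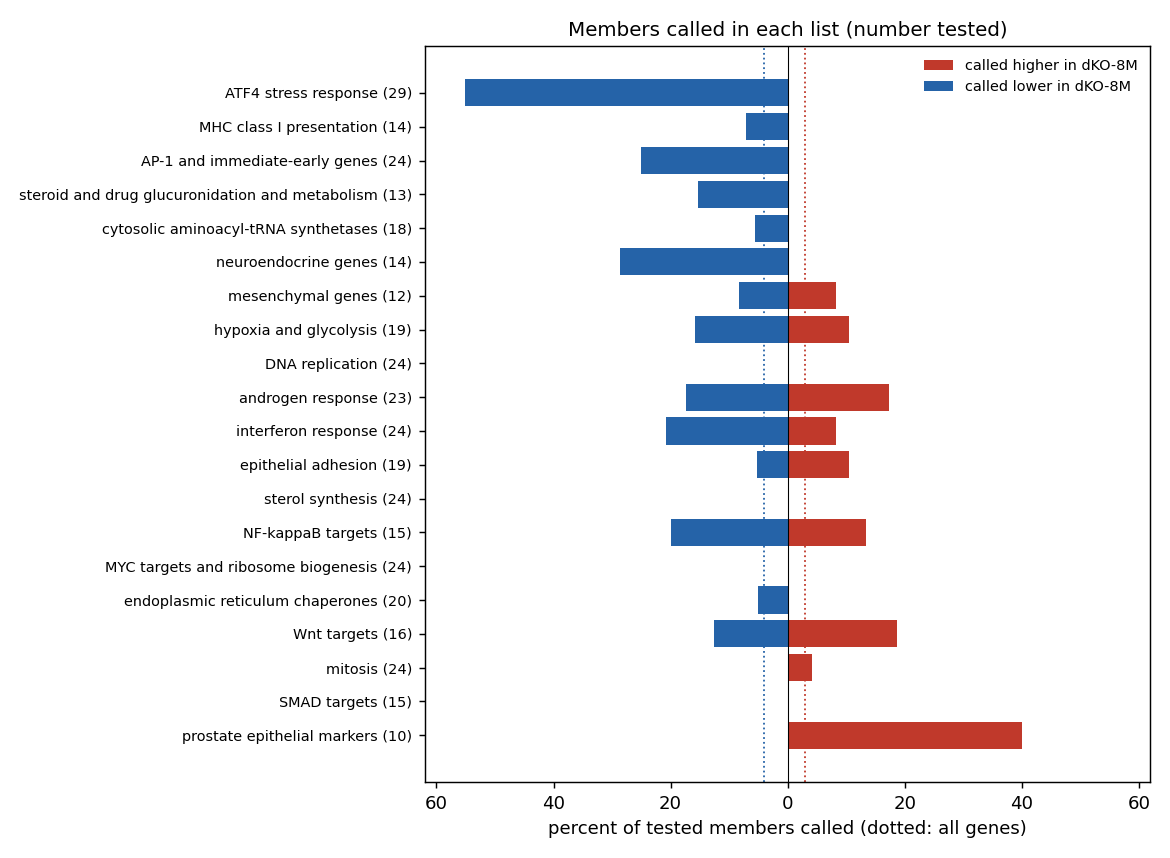
Percent of the tested members of each list that were called higher (to the right, red) or lower (to the left, blue) in dKO-8M, for the 20 lists with at least 10 members tested, whose number stands in parentheses. Dotted lines mark the share over all genes, 2.95% higher and 4.07% lower. The ATF4 stress response list reaches 55.2% lower, and 4 lists have no call.

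The same contrast under SNX631 was measured in 6 further libraries. There 1010 genes were called (5.05%), 463 higher (2.31%) and 547 lower (2.73%) in dKO-8M. Of the 1406 genes called under vehicle, 684 were called here too (48.6% of the vehicle calls and 67.7% of the SNX631 calls), 683 of them in the same direction. The fold under SNX631 was a median of 0.68 of that under vehicle on the log2 scale among the vehicle calls, which were chosen for their size under vehicle, and 94.2% of them had the same sign.

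Many genes differed in the same direction in both treatments. A total of 622 vehicle calls (273 higher, 349 lower) were called in the same direction under SNX631 and had an FDR over 0.05 for the difference between the contrasts. CERK was at -1.82 ± 0.0661 under SNX631, with 50.8, 49.1 and 49.2 CPM in dKO-8 and 13.7, 13.3 and 15.4 CPM in dKO-8M. FAM110B was at 2.06 ± 0.0551, with 27.9, 29.1 and 34.1 CPM against 129, 127 and 123 CPM. Both genes were thus apart between the derivatives under the kinase inhibitor too, and the difference between the contrasts was -0.05 ± 0.0928 for CERK and 0.18 ± 0.0797 for FAM110B. NRP1 (1.50 against 1.34 under vehicle), CNN3 (1.47 against 1.31), the collagen receptor DDR1 (-0.91 against -0.83) and the desmosomal DSC2 (1.30 against 1.14) were of the same kind, as were PAX1, GRIK3 and DOC2B. CAPN2, at -3.63 ± 0.0660 with 183, 180.1 and 184 CPM against 14.04, 14.4 and 15.8 CPM, was further apart under SNX631 (difference 0.46 ± 0.0952, FDR 7.72e-04), and NAMPT, at -1.17 ± 0.0359, less so (difference -0.33 ± 0.0502, FDR 3.17e-06), and neither of these passed 1.5-fold.

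The difference between the vehicle and SNX631 contrasts was called for 181 genes (0.905% of genes), 70 more positive (0.350%) and 111 more negative (0.555%) under vehicle, of which 118 were vehicle calls, 77 lower and 41 higher in dKO-8M. For 115 of these 118 the difference between the derivatives was smaller under SNX631, which the choice of genes called under vehicle and in the difference nearly fixes, and 25 were still called there. The number of genes with a called difference moved with the fit, to 299 on the libraries of the comparison alone, 291 with the replicate block added and 11 in the test against 1.5-fold. GTPBP2, a GTP-binding protein of ribosome quality control, read 131, 130.1 and 132 CPM in dKO-8 and 50.0, 50.3 and 50.0 CPM in dKO-8M under vehicle (log2 -1.39 ± 0.0557 SE, FDR 9.51e-29). Under SNX631 it read 73.9, 71.9 and 71.9 CPM against 48.4, 45.5 and 48.1 CPM, and the difference between the contrasts was -0.77 ± 0.0801 (FDR 3.52e-10). The dKO-8 libraries moved toward the dKO-8M level, which itself hardly differed between the treatments. The mitochondrial alanine aminotransferase GPT2 went from -0.86 under vehicle to -0.14 under SNX631 (difference -0.72 ± 0.0552, FDR 4.87e-15).

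Genes higher in dKO-8M did the same in the opposite sense. SFN, the 14-3-3 sigma protein, read 427, 406 and 403 CPM in dKO-8 and 731, 753 and 758 CPM in dKO-8M under vehicle (log2 0.86 ± 0.0451 SE, FDR 2.01e-23). Under SNX631 it read 625, 647 and 657 CPM against 738, 723 and 733 CPM (0.19 ± 0.0445), and the difference between the contrasts was 0.67 ± 0.0632 (FDR 1.52e-11). The transcriptional repressor HES7 went from 1.45 to 0.60 (difference 0.86 ± 0.0823, FDR 2.92e-11), and ST8SIA1 from 2.59 to 0.50 (difference 2.09 ± 0.242, FDR 6.40e-09). TARP and TRGC1, overlapping genes of the T cell receptor gamma locus that are transcribed in prostate cells, were lower in dKO-8M under vehicle. They also belonged to the lowest interaction p-values (difference between the contrasts -0.88 and -0.84), but had fractional counts in 93.8% and 97.9% of libraries. The claudin CLDN4, at 0.75 under vehicle, was at -0.08 under SNX631 (difference 0.82 ± 0.0889, FDR 1.36e-08).

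A single gene, the phospholipase PLCD4, was called in opposite directions, and it was chosen for that after its values were seen. It read 2.40, 1.78 and 1.88 CPM in dKO-8 and 2.84, 3.81 and 3.10 CPM in dKO-8M under vehicle (log2 0.68 ± 0.190 SE, FDR 0.00402). Under SNX631 it read 4.89, 5.31 and 4.86 CPM against 3.38, 3.37 and 3.07 CPM (log2 -0.61 ± 0.163 SE, FDR 0.00308), so that the dKO-8 libraries were the high ones there.

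**Figure D4:**
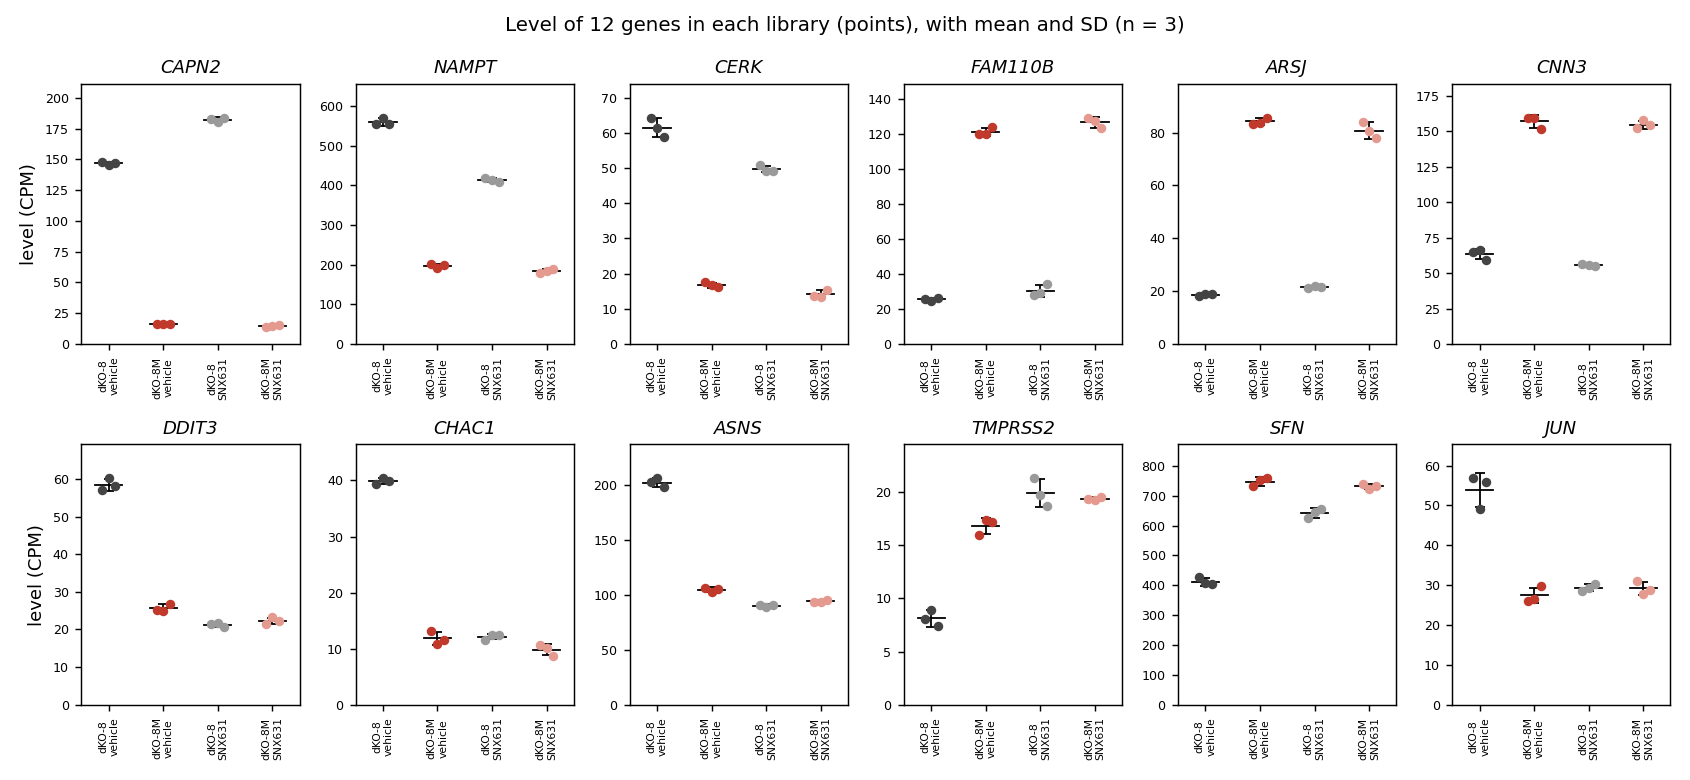
Level of 12 genes in CPM after TMM scaling (vertical axis, linear from 0) in dKO-8 (greys) and dKO-8M (reds) under vehicle and under SNX631, where each point is 1 library and the lines give the mean and SD (n = 3). In the upper row (such as CAPN2 and FAM110B) the 2 derivatives are apart in both treatments, and in the lower row the dKO-8 libraries under SNX631 lie near the dKO-8M libraries, as in CHAC1 (12.2 ± 0.468 against 9.82 ± 0.962 CPM).

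The direct effect of the inhibitor in dKO-8 shares the 3 dKO-8 vehicle libraries with the main comparison, so the 2 sets of values are only set side by side. SNX631 called 342 genes in dKO-8 (1.71%), 131 higher (0.655%) and 211 lower (1.05%). CHAC1 was at -1.71 for SNX631 against vehicle in dKO-8 and at -1.74 for dKO-8M against dKO-8, DDIT3 at -1.46 and -1.19, ASNS at -1.16 and -0.95, and JUN at -0.88 and -0.98. SFN was at 0.64 and 0.86, and TMPRSS2 at 1.30 and 1.05. CAPN2, by contrast, was at 0.31 and -3.17, FAM110B at 0.25 and 2.25, and HEY2 stood at 6.80 ± 0.715 CPM in dKO-8 under SNX631 and 7.57 ± 0.420 CPM under vehicle. The inhibitor in dKO-19, in 6 libraries that are not those of the main comparison, called 682 genes (3.41%), 375 higher (1.87%) and 307 lower (1.53%). There 283 genes were called in both, 20.1% of the main calls and 41.5% of the 682, with 249 in the same direction and 34 in opposite ones. The ATF4 list had 20 of 29 members lower in that comparison, with a median of -0.80.

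The corresponding pair for the paralog, dKO-19M against dKO-19 under vehicle, had 1520 calls (7.60%), 745 higher (3.72%) and 775 lower (3.87%). It shares no library with the CDK8 pair. Of the genes called, 476 were common to both pairs, 33.9% of the CDK8 calls and 31.3% of the CDK19 calls. They went in the same direction for 356 (158 higher, 198 lower) and in opposite directions for 120. The difference between the 2 effects was itself called for 1680 genes (8.40%; 3.81% more positive and 4.59% more negative in the CDK8 pair), among them 672 of the 1406. In dKO-19M, replicate 1 had a TMM factor of 0.931, against 0.958 and 0.962 in replicates 2 and 3. Without replicate 1 there were 1459 calls for CDK19 and 1569 for the difference. Without replicate 2 these were 1433 and 1700, and without replicate 3 they were 1440 and 1665.

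FAM110B (2.12 for CDK19 against 2.25 for CDK8), ARSJ (2.05 against 2.17), FBN2 (2.58 against 3.24), ST8SIA1 (2.54 against 2.59) and SFN (0.79 against 0.86) rose in both kinase-dead lines, and the difference between the effects was not called. Among the lower genes JUN (-0.81 against -0.98) and VIM (-0.72 against -1.06) were of the same kind. CAPN2 was higher in dKO-19M (1.05) and lower in dKO-8M (-3.17), a difference of -4.23 ± 0.0892 (FDR 1.30e-42). KLK4 (-3.21 against 1.54), CBLN2 (-2.41 against 2.60), STEAP2 (-1.29 against 0.95) and FOLH1 (-0.95 against 1.61) fell in dKO-19M and rose in dKO-8M. The ATF4 list had a median of -0.10 in the CDK19 pair, with 1 member higher and 1 lower, against 0 and 16 in the CDK8 pair. DDIT3 was at -0.25 there, PCK2 at 0.06 and CHAC1 at -0.58, and the difference between the effects was -0.94 ± 0.0798 for DDIT3 (FDR 1.10e-14).

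Long stretches of some chromosomes differed between the 2 derivatives, and the chromosomes described were chosen after the values were seen. Over 14972 genes with a mean of at least 1 CPM the median difference was 0.00 on the log2 scale, and 50.6% of genes were below 0. On chromosome 6 the median of 716 such genes was -0.25, with 79.2% below 0, and of its 91 called genes 12 were higher and 79 lower. The shift lay between 0 and 100 Mb, where 20 Mb windows had medians of -0.31, -0.34, -0.31, -0.20 and -0.23. Beyond it the window medians were between -0.06 and 0.03. Besides the MHC genes, the called genes FKBP5, VEGFA, GTPBP2, NFKBIE, DDR1, IER3 and SCGN named above lie in the shifted stretch. Their differences include whatever the stretch as a whole contributes. Under SNX631 the median of chromosome 6 was -0.20, and in the CDK19 pair it was 0.03. Relative to Rv1-Luc it was -0.16 in dKO-8M and 0.06 in dKO-8. On chromosome 14 the median of 497 genes was 0.20 (0.18 under SNX631, 0.12 in the CDK19 pair), with dKO-8 at -0.10 and dKO-8M at 0.06 relative to Rv1-Luc. Its last window, from 100 Mb, was at -0.05. The window from 20 to 40 Mb was at 0.24, and it holds IRF9 and EGLN3, called higher, and PCK2, called lower. The differences of these genes include whatever the window as a whole contributes. On chromosome 7, which holds NAMPT and ASNS, 762 genes had a median of -0.09. The part of these shifts in the calls on chromosomes 6, 7 and 14 was not tested, and DNA copy number was not measured here.

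**Figure D5:**
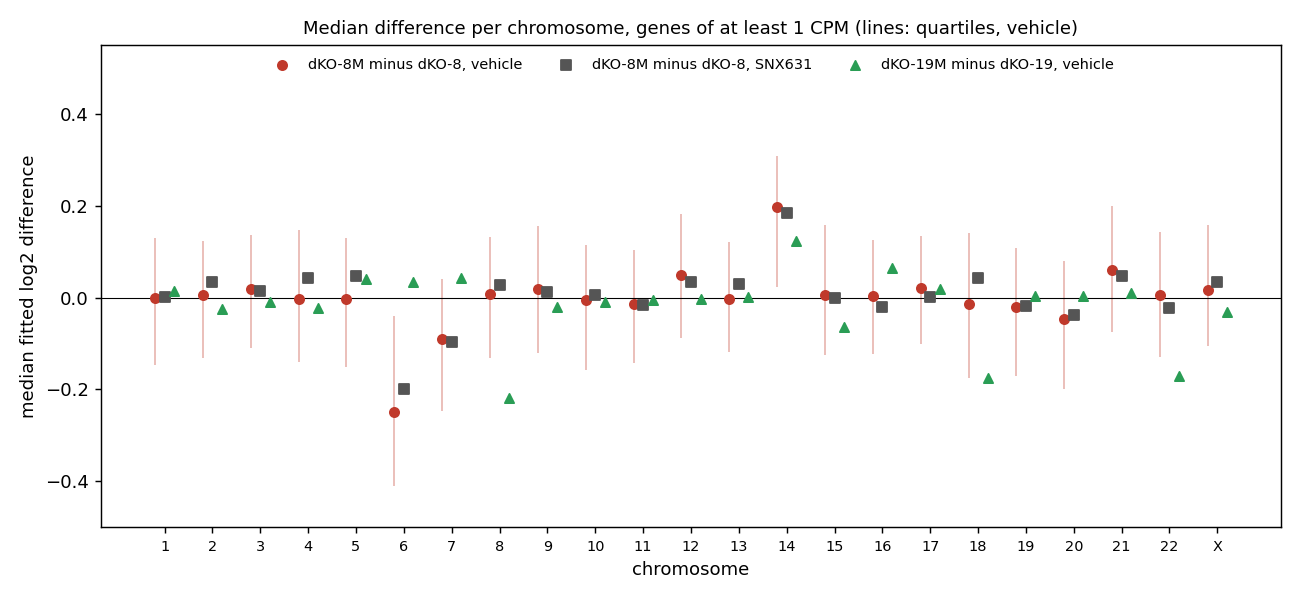
Median fitted log2 difference of dKO-8M minus dKO-8 (vertical axis) of the genes with a mean of at least 1 CPM on each chromosome (horizontal axis) under vehicle and under SNX631, and of dKO-19M minus dKO-19 under vehicle, with lines for the quartiles of the genes in the main comparison. Chromosome 6 is lowest in both CDK8 contrasts (-0.25 and -0.20) and at 0.03 in the CDK19 contrast, and chromosome 14 is highest in all 3 (0.20, 0.18 and 0.12).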

How the data were processed

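RNA-Seq of 48 libraries of 22Rv1 cells and derivatives was used, with groups and replicate numbers taken from the sample titles. The authors deposited 1 table of expected counts per gene for 61817 entries, with 18.4% of nonzero values not whole and no scaling for depth. Per the labels, libraries were strand-specific, and the submitters' processing notes name FastQC, cutadapt 2.8, STAR 2.7.2b, featureCounts of Subread 2.0.3 and the builds GRCh38.p13 and GRCm39. The annotation release is not given in the sources used here. Identifiers were matched to GENCODE 29 (GRCh38) for positions (19346 of 20009).

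Counts were rounded to whole numbers. Genes were kept by filterByExpr (minimum count 10, minimum total 15), which left 20009, and libraries were scaled by TMM. All 48 libraries entered 1 fit with 16 group means (32 residual degrees of freedom, biological coefficient of variation 4.20%), and 7 comparisons were tested two-sided with edgeR's quasi-likelihood test (edgeR 4.0.16, limma 3.58.1, R 4.3.3) and Benjamini-Hochberg adjustment within each. Calls used the study's limits, FDR under 0.01 and over 1.5-fold. In data simulated for the main comparison (19809 genes), all of 50 genes changed 2-fold were called (100%) and 0% of 50 changed 1.25-fold. A change of 1.25-fold lies under the 1.5-fold limit of a call, so the call rule nearly fixed that 0%. The changed genes had at least 1 CPM, and the spread was that of the fit itself. The simulation thus does not cover genes under 1 CPM or spread between cultures. Intervals (95%, for ratios of counts) and the floor of 3 counts cover counting error only.

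The members, the 25 lists and the tests were chosen with earlier results of these data known. Named genes were the 12 largest rises, the 12 largest falls and the 10 lowest p among called genes of at least 1 CPM, the Mediator kinase module, up to 6 members of each list by p, the 8 lowest p of the difference between treatments among called genes, and the 8 lowest p under SNX631 among calls that persisted. Further list members were named after their values were seen. Alternatives were DESeq2 1.42.0, other scalings and filters, other sets of libraries, thinned counts, other call rules, a replicate block, and each replicate left out. Fold changes and p-values of the authors were not used. Some genes of the lists are not reported here.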

Additional observations from a re-analysis of the deposited data

Results flagged for a closer look

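The dKO-8M against dKO-8 difference differed between vehicle and SNX631 for 181 genes (70 more positive and 111 more negative under vehicle, 0.905% of 20009) by a test of the difference itself with edgeR's quasi-likelihood fit. The number was 299 on the libraries of the comparison alone, 291 with the replicate block added and 11 in the test against 1.5-fold. The kinase-dead against active difference differed between the CDK8 pair and the CDK19 pair for 1680 genes (762 more positive and 918 more negative in the CDK8 pair, 8.40%). PLCD4 was called in opposite directions in the 2 treatments, with a log2 difference of 0.68 under vehicle, -0.61 under SNX631 and 1.29 between them. Its vehicle call was lost without dKO-8 replicates 2 or 3 (0.61 and 0.62) or dKO-8M replicate 2 (0.55).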

How the results depend on the processing

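Of the 1406 calls, 975 were kept in all 6 fits that leave out 1 of the 6 libraries, and 249 were of genes with a mean under 1 CPM, where counts are few. No call among the genes named by rule reversed its direction. The number of calls moved most with the call rule. The test against 1.5-fold gave 534 (vehicle), 370 (SNX631), 11 (difference between treatments), 631 (CDK19 pair), 575 (CDK8 against CDK19), 62 (SNX631 in dKO-8, 16 higher and 46 lower) and 210 (SNX631 in dKO-19). An FDR under 0.05 with no fold limit gave 6095, 4537, 1240, 6660, 5915, 2705 and 4116. For the difference between treatments, fitting only the libraries of the comparison gave 299, and adding the replicate block gave 291, against 181. Why these 2 fits differ from the main one was not tested.

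Without 1 replicate the counts were 1238 to 1305, 876 to 922, 151 to 162, 1389 to 1459, 1554 to 1700, 273 to 292 and 601 to 649 in the same order. The main comparison had 1314 calls with DESeq2 (1287 of the 1406 among them), 1248 among genes of at least 1 CPM, 1108 without genes of fractional counts and 1463 with the replicate block, and the remaining counts stayed within 1.5 times. Same-numbered replicates did not deviate together (correlations -0.08, -0.08 and 0.01), so no pairing by number was seen in these libraries. Whether same-numbered libraries were cultured or prepared together cannot be told from these correlations. Of the 90 calls among the genes named by rule, 27 were lost in the test against 1.5-fold. None of the 90 was lost in DESeq2, which gave no adjusted p for UGT2B28. DUSP1 and IFI44L, list members named outside that rule, were not called with DESeq2, as given above. The median of chromosome 6 ranged from -0.26 to -0.23 and that of the ATF4 list from -0.63 to -0.59.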
